A study of Homo sapiens with 12 samples.

Results

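Day 20 of a differentiation course directed at γδ T cells was set against the days on either side of it, and genes were sought whose level at day 20 lay above both days 15 and 25 or below both. The comparison used 9 of the 12 libraries of the series, 3 each from days 15, 20 and 25. Of 19785 genes tested, 2353 (11.9%) lay above both days and 1767 (8.93%) below both, each difference passing edgeR's quasi-likelihood test at a Benjamini-Hochberg adjusted p under 0.05. At least 2-fold from both days were 444 genes above (2.24%) and 212 below (1.07%). The test against day 15 and the test against day 25 share the day 20 libraries, so the steps are given side by side and are not independent of each other.

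All libraries came from H9, an established human embryonic stem cell line of wild-type genotype carried through cytokine-induced differentiation, and the labels assign 1 batch to all of them. Days 15 and 20 are labelled T progenitor and day 25 mature γδ T cell. From day 10 the cells of all 3 days had MEM-α with 20% fetal bovine serum, SCF at 10 ng/mL, IL-7 at 5 ng/mL, Flt3L at 5 ng/mL, the Notch ligand DLL4 at 10 ng/mL and a reagent named MAP. The labels do not say whether the 3 libraries of a day were separate cultures, so a p-value reflects no more than how far these libraries scatter, and that scatter may be technical.

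In T-cell development a blood progenitor exposed to Notch ligand and IL-7 gives up other fates, rearranges its receptor genes and then places the receptor on its surface with the CD3 proteins. Cultures of pluripotent origin can hold other blood cells and cells of other germ layers, among them cells that make the serum proteins of yolk sac and fetal liver. In bulk RNA, fewer cells of a type and less RNA per cell cannot be told apart.

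The deposited table gave between 27351361 and 39811230 counts for each of the 9 libraries. Levels are CPM, a gene's counts relative to its library's size after edgeR's TMM scaling, with a mean ± SD over n = 3 libraries, and folds and log2 differences are from the fit. CPM is not corrected for gene length, so levels are compared between days and not between genes. The scaling factors separated the days, at 0.773 to 0.78 for day 15, 1.191 to 1.209 for day 20 and 1.064 to 1.074 for day 25. With scaling by library size alone, the median difference of all genes against day 15 moved from 0.10 to 0.73 log2. Against day 25 it moved from 0.024 to 0.19. As day 20 had the largest factors, leaving them out raised day 20 against both days. That all 2353 genes above both days remained so was therefore largely built in. Of the 1767 below both, 682 (38.6%) remained below. The labels were checked on the T-cell genes CD3D, CD3E and CD3G. They held 3, 0 and 0 counts over the 3 day 15 libraries, 29, 33 and 14 at day 20, and 0, 17 and 0 at day 25, the day labelled mature γδ T cell. These defining T-cell genes were thus at or near 0 on all 3 days.

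The contrast of day 20 with the mean of its neighbours on the log scale is a looser measure than lying beyond both. It passed for 6661 genes as higher (33.7%) and 5916 as lower (29.9%), a split of 53.0% higher that became 77.5% with library-size scaling. Among the higher genes 35.3% lay above both days, while 1375 (20.6%) rose through day 20 and kept rising. Among the lower genes 29.9% lay below both, and 1211 (20.5%) fell through day 20. Pairwise, day 20 was higher than day 15 for 8138 genes (41.1%) and lower for 7217 (36.5%), and against day 25 for 4978 (25.2%) and 4994 (25.2%). Genes just inside the 2-fold limit were AMOT, at a smaller fold of 2.004, and CCDC9B below, at 2.012. Just outside were LYRM4 at 1.998 and SLITRK4 at 1.992. Of the 444 genes at least 2-fold above, 77 reached the minimum count of 10 in fewer than 3 libraries of days 15 and 25. For these a difference was built into the filter.

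**Figure D1:**
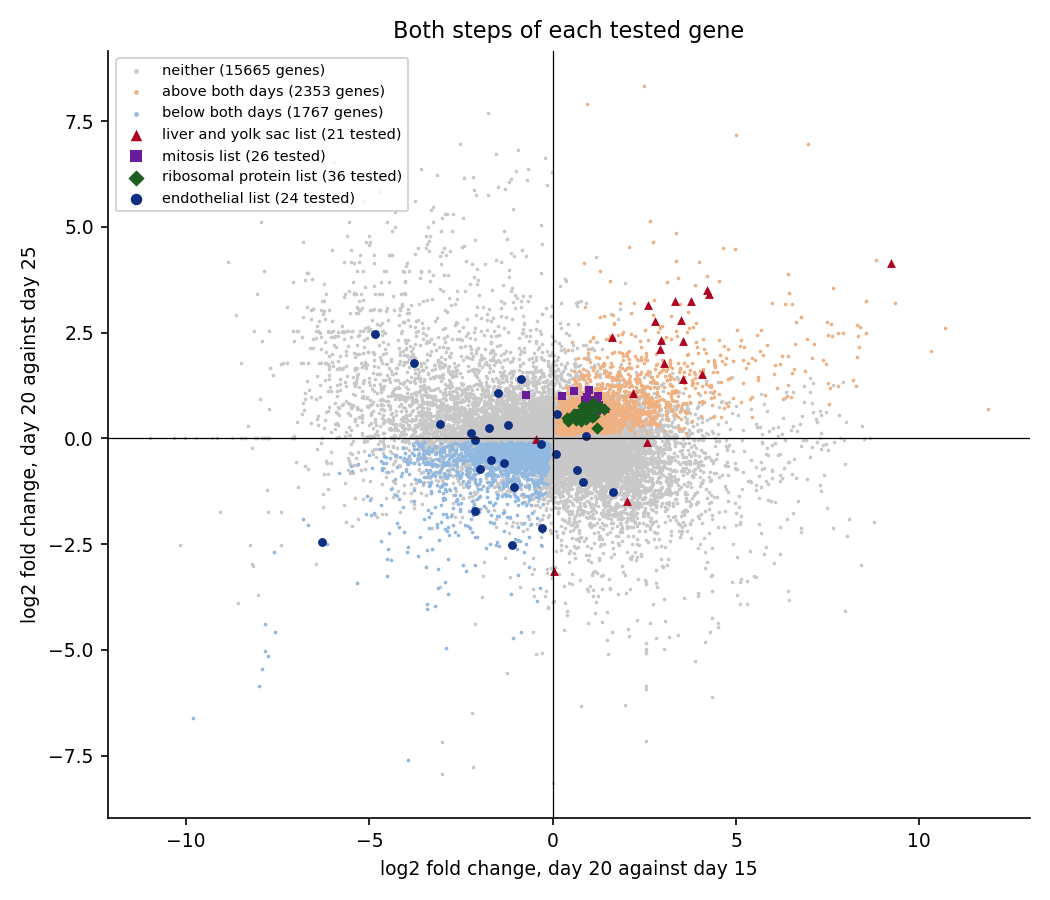
Each point is 1 of 19785 tested genes, with its log2 fold change of day 20 against day 15 on the horizontal axis and against day 25 on the vertical axis. The upper right quadrant holds the 2353 genes called above both days and the lower left the 1767 below both, and the triangles of the liver and yolk sac list reach farther from the centre than the tight group of mitosis and ribosomal protein genes; under library-size scaling 682 of the 1767 remained below both.

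Genes of serum proteins made by liver and yolk sac had the largest median contrast of the 43 gene lists. Of the 22 genes listed, 21 were tested. Of these, 2 reached the minimum count in fewer than 3 libraries of days 15 and 25. Above both days were 16 of the 21, each at least 2-fold. None was below both. Their median contrast was 2.65 log2, beside 0.037 over all genes tested. Since promoters of several of these genes are textbook targets of the hepatic factor HNF1, the 150 bases before the start of 3 of them are shown, with the HNF1 core GTTAAT, or ATTAAC where it lies on the other strand, in capitals. The windows, from RefSeq on GRCh38.p14, are chr4:73404137-73404286 (plus strand), chr4:73436071-73436220 (plus strand) and chr4:154590743-154590892 (minus strand).
ALB: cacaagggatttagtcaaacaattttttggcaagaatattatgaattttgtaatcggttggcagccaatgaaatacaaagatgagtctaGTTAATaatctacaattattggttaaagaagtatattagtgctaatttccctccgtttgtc
AFP: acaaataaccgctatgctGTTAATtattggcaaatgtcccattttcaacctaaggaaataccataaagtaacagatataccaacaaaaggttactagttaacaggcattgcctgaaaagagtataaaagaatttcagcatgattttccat
FGA: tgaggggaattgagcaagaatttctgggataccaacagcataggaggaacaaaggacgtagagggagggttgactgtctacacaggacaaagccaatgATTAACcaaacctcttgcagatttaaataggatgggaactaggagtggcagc
Of the 16 genes, 12 had a RefSeq promoter, and 4 of these (33.3%) held the motif on either strand within 250 bases before the start, namely ALB, AFP, FGA and FGB. Among all 27305 promoters 6.22% did. Matches of letters are a description and show no binding.

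ALB (ENSG00000163631), which encodes serum albumin, stood at 12.6, 11.7 and 10.7 CPM in the day 15 libraries, 123, 113 and 119 at day 20, and 12.1, 12.6 and 12.5 at day 25. The day 20 libraries lay above all others, and day 25 returned to the day 15 level. The fold was 10.2 against day 15 (adjusted p = 3.9e-34, edgeR) and 9.54 against day 25 (2.7e-33). Transthyretin, the thyroxine and retinol carrier encoded by TTR (ENSG00000118271), went from 3.65, 3.66 and 2.43 CPM to 60.6, 59.1 and 59.9, and then to 5.53, 4.77 and 5.56. Here too the day 20 libraries overlapped neither neighbour, with folds of 18.6 and 11.4 (adjusted p = 1.8e-30 and 1.2e-28). AFP, the fetal albumin relative next to ALB, stood at 50.6, 50.9 and 54.6 CPM at day 15, 410, 403 and 405 at day 20 and 81.3, 81.3 and 79.7 at day 25. Again the day 20 libraries lay above all others.

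The apolipoprotein genes moved alike. APOA2 had 3.23 ± 0.36, 36.4 ± 1.6 and 5.22 ± 1.1 CPM on days 15, 20 and 25, and APOC3 had 0.965 ± 0.19, 18.5 ± 1.1 and 1.73 ± 0.6. APOA1, the main protein of high-density lipoprotein, stood at 2.11 ± 0.59, 24.9 ± 1.9 and 9.35 ± 0.49. APOA4 had 0 counts at day 15, 246 at day 20 and 14 at day 25, so its level at day 20 was at least 55.9-fold above day 15, taking a floor of 3 counts over that day's libraries. It reached the minimum count through day 20 alone. All 4 lay above both days in each library.

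The 3 chains of fibrinogen, the clotting protein, were above both days together. FGA stood at 13.9, 12.7 and 11.4 CPM at day 15, 76.1, 76.4 and 76.6 at day 20 and 8.5, 7.79 and 9.65 at day 25. The fold was 6.03 against day 15 and 8.87 against day 25. FGB reached 96.5 ± 1.9 CPM from 11.8 ± 0.89 and stood at 28.3 ± 1.7 at day 25, and FGG reached 85 ± 2.1 from 11.2 ± 1.4 and stood at 19.7 ± 2.9. AHSG, which encodes the plasma protein fetuin-A, had 3.11 ± 0.19, 42.6 ± 3.2 and 4.5 ± 0.33 CPM. The carrier of retinol, RBP4, had 1.53 ± 0.43, 18 ± 0.68 and 3.63 ± 0.18.

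Not all listed genes followed. SERPINA1, the gene of α1-antitrypsin, which is also made by myeloid cells, rose from 19 ± 0.91 to 112 ± 1.5 CPM and stood at 120 ± 0.77 at day 25 (adjusted p = 0.074 for the second step). Levels of HNF4A, a hepatic transcription factor gene, were 2.31 ± 0.59, 1.69 ± 0.4 and 1.7 ± 0.41 CPM, and neither step passed (0.17 and 0.96). FOXA2, an endoderm transcription factor gene, rose through day 20, at 0.086 ± 0.082, 0.354 ± 0.045 and 1 ± 0.34 CPM. AFP, APOA1, FGB, FGG, RBP4, SERPINA1, HNF4A and FOXA2 were picked after their values were seen.

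**Figure D2:**
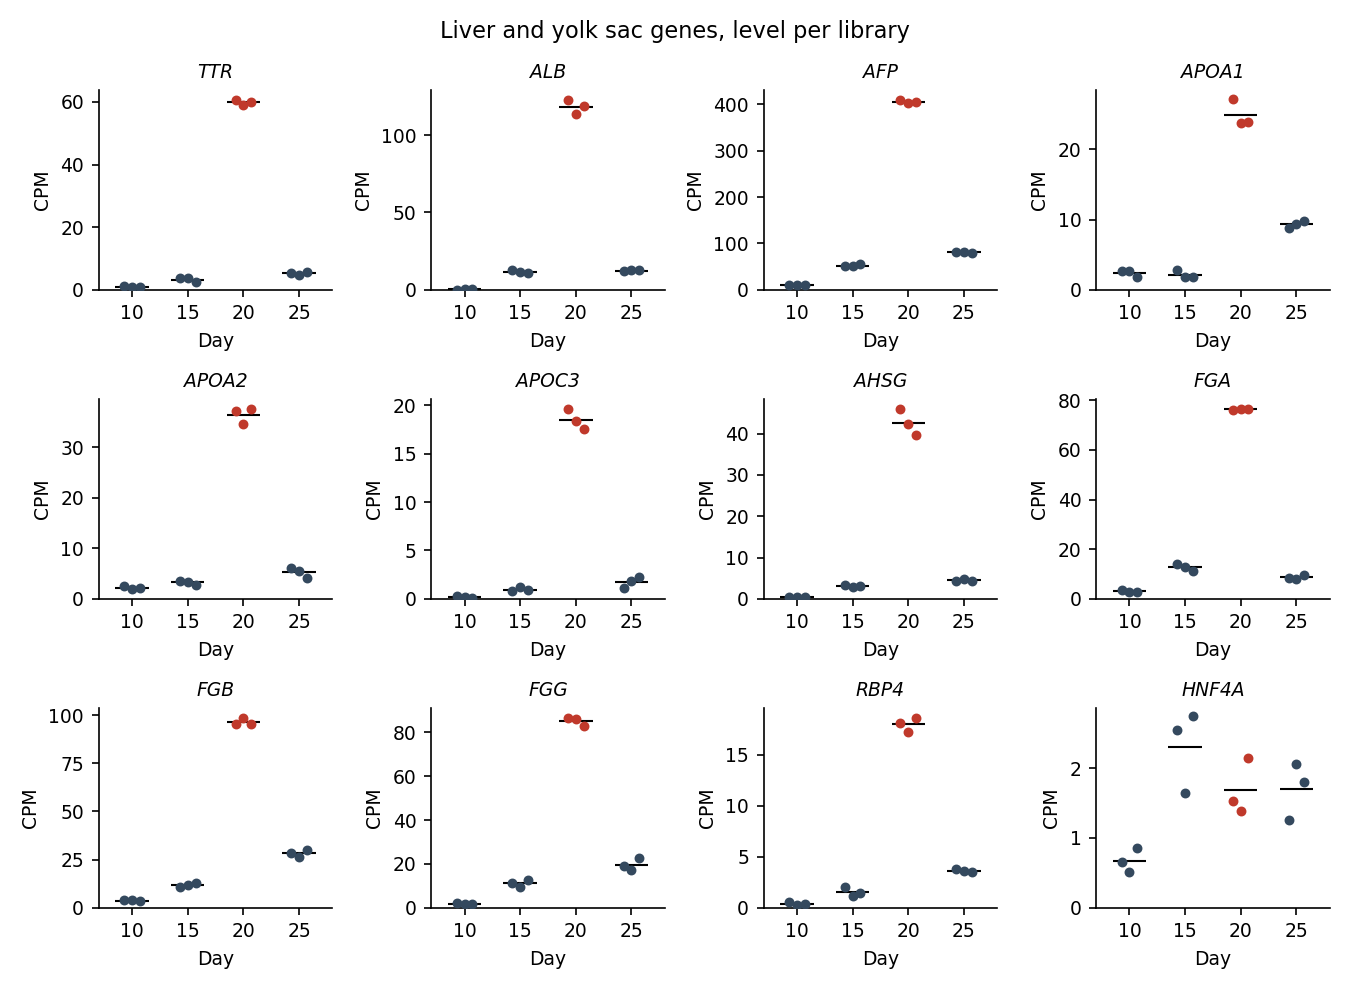
CPM of 12 genes of the liver and yolk sac list in each library by day, with red points for day 20, dark points for the other days and a bar at the mean of 3 libraries. In 11 panels the day 20 points stand above days 15 and 25, as for ALB at 113 to 123 CPM, while those of HNF4A overlap both days.

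Several of these genes are neighbours on their chromosomes in GENCODE release 29. ALB and AFP lie side by side at chr4:73397114-73456174, FGB, FGA and FGG at chr4:154562956-154612967, and APOA4, APOC3 and APOA1 at chr11:116820700-116837950. Among 397 protein-coding genes at least 2-fold above both days, 71 stood beside another such gene, in 33 runs of at most 3 genes. Others of these runs were IL1A with IL1B and LUM with DCN. Of 134 such genes below both days, 6 did, in 3 runs. The 2 sets differ in size and no expected number was set beside them, so these counts are a description.

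Among genes above both days outside the serum protein list was SLC5A12, a sodium-coupled lactate transporter gene of the kidney and gut, at 0.943, 1.22 and 1.14 CPM at day 15, 101, 94 and 94.7 at day 20, and 8.96, 9.29 and 8.47 at day 25. It was 87.9-fold above day 15 and 10.8-fold above day 25. AGTR1, the gene of the angiotensin II type 1 receptor, went from 0.0743 ± 0.071 to 14.8 ± 1.1 CPM and then to 1.24 ± 0.34. EFHD1 (24.9 ± 0.52 CPM at day 20), SUSD2 (36.3 ± 3.6) and SERPINE3 (30.1 ± 3.2) each stood at least 6.58-fold above both days. PODXL, which encodes a sialomucin of podocytes, vessels and stem cells, rose from 7.73 ± 0.33 to 656 ± 21 CPM and fell to 275 ± 5.3. In all of these the day 20 libraries overlapped neither neighbour, which the rule that named them required.

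Genes of cell division were above both days almost as a block, by less than 2-fold on at least 1 side. Of 26 DNA replication genes 23 lay above both days (88.5%), and of 26 mitosis genes 25 did (96.2%), against 11.9% of all genes. None of either list lay at least 2-fold above both days, and the median contrasts were 0.84 and 0.89 log2, beside 0.037 over all genes. All 26 genes of each list had a higher mean level at day 10 than at day 20, so day 20 was a local peak within a lower range. MKI67, the proliferation antigen gene, had 156, 157 and 154 CPM on day 15, then 274, 291 and 294 on day 20, then 196, 209 and 196 on day 25, beside a mean of 819 on day 10. Its day 20 libraries stood apart from both neighbours (1.84-fold and 1.43-fold, adjusted p = 8.2e-23 and 5.2e-15).

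BIRC5, which encodes survivin, stood at 21.8 ± 0.6, 51.3 ± 2.5 and 25.8 ± 1.5 CPM on the 3 days. CDC20, the activator of the anaphase-promoting complex, had 27.2 ± 1.8, 54.5 ± 2 and 24.8 ± 2.1, and CDK1, the kinase that drives entry into mitosis, had 35.9 ± 3.7, 68.3 ± 1.4 and 34.6 ± 2.3. Among replication genes, CDC6, which loads the replicative helicase, had 13.2 ± 1.3, 25.7 ± 1.8 and 12.7 ± 1. The helicase subunit gene MCM4 had 63.9 ± 1.2, 148 ± 2.4 and 75.8 ± 3.3. In each of these, day 25 lay nearer to day 15 than to day 20, and day 20 overlapped neither day.

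Because late cell-cycle genes share a promoter element, the cell cycle homology region, the 150 bases before the start of 3 mitosis genes are shown with its letters TTTGAA, or TTCAAA on the other strand, in capitals. The RefSeq windows on GRCh38.p14 are chr16:23678739-23678888 (plus strand) for PLK1, a mitotic kinase gene, chr1:43358831-43358980 (plus strand) for CDC20 and chr15:59104996-59105145 (plus strand) for CCNB2, a cyclin gene.
PLK1: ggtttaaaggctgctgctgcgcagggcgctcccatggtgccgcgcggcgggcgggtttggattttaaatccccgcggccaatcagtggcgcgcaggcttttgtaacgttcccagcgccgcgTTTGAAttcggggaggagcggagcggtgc
CDC20: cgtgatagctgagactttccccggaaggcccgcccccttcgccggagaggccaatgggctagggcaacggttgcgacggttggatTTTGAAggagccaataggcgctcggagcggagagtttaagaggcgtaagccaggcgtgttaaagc
CCNB2: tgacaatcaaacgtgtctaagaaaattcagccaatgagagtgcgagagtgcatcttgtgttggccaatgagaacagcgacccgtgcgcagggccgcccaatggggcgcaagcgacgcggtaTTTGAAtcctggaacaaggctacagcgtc
Of the 25 mitosis genes above both days, 20 had a RefSeq promoter and 12 of these (60%) held the letters on either strand within 250 bases before the start, beside 13.6% of all 27305 promoters. PLK1 stood at 27.9 ± 2.5, 57.7 ± 0.5 and 30.6 ± 2.7 CPM.

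All 36 cytosolic ribosomal protein genes tested lay above both days (100%), none by 2-fold on both sides, with a median contrast of 0.80 log2. RPLP0, of the ribosomal stalk, had 525, 524 and 554 CPM at day 15, 1162, 1105 and 1092 at day 20 and 655, 648 and 649 at day 25. The 3 days did not overlap, with folds of 2.10 and 1.72 (adjusted p = 1.6e-28 and 3.4e-23). RPSA stood at 290 ± 11, 619 ± 13 and 349 ± 15 CPM and RPS3 at 400 ± 11, 827 ± 25 and 476 ± 2.2. Summed over the 36 genes, the level was 9720 to 10100 CPM at day 15, 18000 to 19100 at day 20 and 12200 to 12500 at day 25. At day 10 the sum was 21700 to 22400 CPM. Ribosomal protein genes have many processed pseudogenes, so the reads of each gene are uncertain in part.

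**Figure D3:**
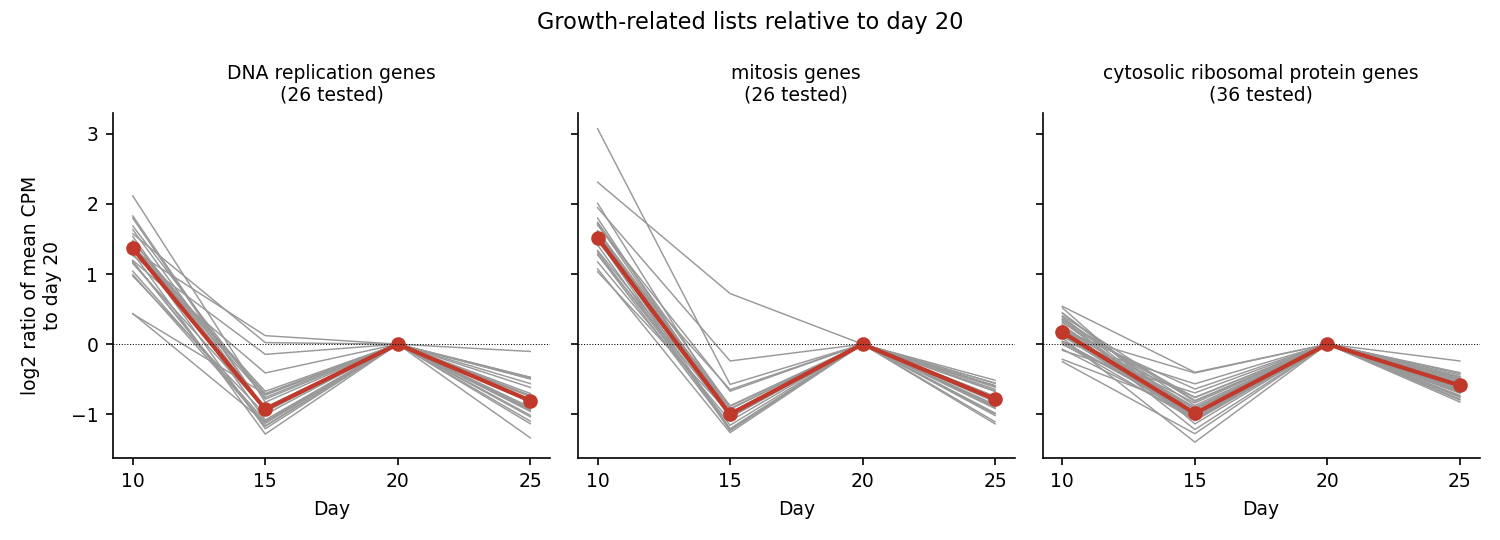
Mean CPM of each day relative to day 20, on a log2 axis, against day for 26 DNA replication, 26 mitosis and 36 cytosolic ribosomal protein genes, with a grey line per gene and the list median in red. The medians dip at day 15, stand at 0 at day 20 by construction and lie lower again at day 25, while day 10 is above day 20 in all 3 panels.

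Some chaperone genes were above both days as well. Of 16 tested, 5 lay above both days (31.2%) and 1 below, and with library-size scaling 9 and 0 did. HSPD1, the mitochondrial chaperonin gene, had 128 ± 4.6, 290 ± 1.6 and 195 ± 5.5 CPM, and HSPA5, the endoplasmic reticulum chaperone BiP, had 527 ± 9.5, 1059 ± 6.8 and 804 ± 8.1. XBP1, a transcription factor gene of the unfolded protein response, had 68.1 ± 1.5, 138 ± 5.6 and 71.9 ± 1.1.

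Most granule genes of early neutrophils were above both days. Of 15 primary granule genes 11 lay above both days (73.3%), 2 of them by 2-fold, and 1 below, with a median contrast of 0.97 log2. MPO (ENSG00000005381), the myeloperoxidase gene, stood at 3366, 3420 and 3524 CPM at day 15, 11440, 11530 and 11480 at day 20 and 4167, 4249 and 4189 at day 25. Day 20 overlapped neither day, at 3.34-fold and 2.73-fold. PRTN3, the proteinase 3 gene, had 1063 ± 44.9, 3260 ± 95.5 and 1001 ± 11.3 CPM. CTSG, of cathepsin G, had 63.5 ± 3.6, 397 ± 18 and 205 ± 7.8. The later specific granule and defensin genes did not share the shape, as 1 of 18 lay above both days, 2 lay below and 14 rose through day 20.

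Of 12 eosinophil genes tested, 5 lay above both days (41.7%) and the other 7 fell through day 20. With library-size scaling 8 lay above and 2 fell through. RNASE3, the eosinophil cationic protein gene, which is close in sequence to RNASE2 and may share reads with it, stood at 29.3 ± 3, 71.7 ± 3 and 22.2 ± 0.81 CPM. SIGLEC8, a surface lectin gene of eosinophils, had 21.1 ± 2.4, 49 ± 1.1 and 17.4 ± 1.2, and CCR3, the eotaxin receptor gene, had 1.07 ± 0.44, 21.8 ± 0.53 and 11.2 ± 0.86. The eosinophil peroxidase gene EPX instead fell at each step, from 3302 ± 96.7 to 1664 ± 6.32 and 167 ± 6.82 CPM. Monocyte and macrophage genes mostly rose through day 20, 25 of 30, and 3 lay above both days, which is 10.0% beside 11.9% of all genes. One of the 3 was LYZ, the lysozyme gene, at 766 ± 15, 3408 ± 71 and 2370 ± 78 CPM.

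The interleukin 1 genes and the neutrophil attractant gene CXCL8 were above both days. Of 27 inflammatory cytokine and chemokine genes 10 lay above both days (37.0%, against 11.9% of all genes), 5 by 2-fold, and 1 below. Another 7 fell through day 20 and 4 rose through it. The summed level of the 27 fell at each step, from 2650 to 2740 CPM at day 15, to 1660 to 1720 at day 20 and 954 to 978 at day 25. CCL17 and CCL18, which were not called, reached the minimum count in fewer than 3 libraries of days 15 and 25. IL1B stood at 17.9, 18 and 18.9 CPM on day 15, reached 150, 137 and 150 on day 20 and stood at 23.4, 23.5 and 22.3 on day 25. The day 20 libraries stood apart, at 7.95-fold and 6.31-fold (adjusted p = 1.2e-34 and 1.1e-32). Its neighbour IL1A (chr2:112773915-112784590) had 3.79 ± 0.98, 23.2 ± 0.81 and 4.69 ± 0.79 CPM. CXCL8, the interleukin 8 gene, had 178 ± 8.2, 603 ± 5.8 and 215 ± 4. CCL13, a chemokine gene at low level, had 0.968 ± 0.22, 3.43 ± 0.88 and 0.362 ± 0.11.

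Immediate early genes, which respond within minutes to stimulation, went in both directions. Of 21 tested, 8 lay below both days (38.1%, against 8.93% of all genes) and 2 above, and library-size scaling gave 4 below and 4 above. NR4A2, an orphan nuclear receptor gene, had 47.3, 47.2 and 47.7 CPM at day 15, 10.5, 10.1 and 8.17 at day 20 and 18.3, 18.8 and 15.9 at day 25. The groups did not overlap, and day 20 was 4.93-fold and 1.84-fold lower. FOSL1, an AP-1 subunit gene, stood at 20.1 ± 2, 4.05 ± 0.39 and 5.8 ± 0.6 CPM, and BTG2, an antiproliferative gene, at 315 ± 9.3, 184 ± 3.2 and 299 ± 2.6. The 2 genes above both days were FOS, at 604 ± 12, 780 ± 12 and 469 ± 5.2 CPM, and JUN, at 46.7 ± 1.3, 166 ± 2.9 and 138 ± 3.2, which were picked after their values were seen.

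Among epithelial genes, those of E-cadherin and the simple keratins were highest at day 20. Of 20 tested, 10 lay above both days (50.0%), 5 of them by 2-fold, and none below, with a median contrast of 1.39 log2. GRHL2, 1 of the 20 and not called, reached the minimum count in fewer than 3 libraries of days 15 and 25. CDH1, the E-cadherin gene, stood at 0.205, 0.188 and 0.823 CPM at day 15, 154, 163 and 160 at day 20 and 27.6, 27.9 and 29.1 at day 25. No library of day 20 came near either neighbour, at 374-fold and 5.64-fold. KRT8 and KRT18, the paired keratin genes of simple epithelia, overlap in the annotation and may share reads. KRT8 had 99.9 ± 1.9, 642 ± 19 and 237 ± 7.7 CPM, and KRT18 had 55.1 ± 2.5, 239 ± 11 and 86.6 ± 1.3. KRT19 had 5.82 ± 1.5, 137 ± 6 and 66.2 ± 2.9.

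Of 30 stromal genes tested, 10 lay above both days (33.3%, against 11.9% of all genes) and 7 rose through day 20. The summed level of the 30 was highest at day 25. It was 5430 to 5620 CPM at day 15, 10300 to 10500 at day 20 and 16900 to 17200 at day 25. The 3 below (10.0%) stand beside 8.93% of all genes, and became 1 with library-size scaling. The neighbouring small proteoglycan genes LUM and DCN (chr12:91102629-91183123) were above both. LUM stood at 61.9, 58.6 and 55.3 CPM, then 436, 417 and 416, then 161, 146 and 149. DCN had 26.1 ± 1.8, 369 ± 7.1 and 149 ± 6.5 CPM, and the collagen gene COL3A1 had 640 ± 10.9, 3971 ± 56.8 and 2156 ± 43.4. ACTA2, the smooth muscle actin gene, was below both days, at 11.9 ± 0.94, 4.66 ± 1.1 and 10.3 ± 0.77. The troponin genes TNNT2 (0.723 ± 0.34, 9.51 ± 0.69 and 3.37 ± 0.98 CPM) and TNNC1 (0.283 ± 0.17, 3.67 ± 0.9 and 0.907 ± 0.29) were among 4 of 16 muscle genes above both days (25.0%), which became 8 with library-size scaling.

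Several homeobox genes, which specify position along the body axis, were above both days at low levels. Of 11 HOXA genes 5 lay above both days (45.5%), and of 23 HOXB, HOXC and HOXD genes 12 did (52.2%), with none below. HOXA10 stood at 1.72, 2.87 and 1.37 CPM at day 15, 18.2, 18.6 and 17.4 at day 20 and 5.26, 5.1 and 4.69 at day 25. HOXA10, HOXA11 and HOXA13 lie in a row at chr7:27170591-27200106, and day 20 overlapped neither neighbour for any of them. HOXB13, at the posterior end of its cluster, had 0.531 ± 0.075, 5.58 ± 0.38 and 1.04 ± 0.25 CPM. Positions along the clusters were not tested.

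Among blood progenitor genes, 7 of 23 lay above both days (30.4%, against 11.9% of all genes). Below both were 2 (8.7%, beside 8.93%), which became 1 with library-size scaling. Another 4 rose through day 20 and 5 fell through it. The summed level of the 23 was 4650 to 4660 CPM at day 15, 1260 to 1280 at day 20 and 1320 at day 25. SPINK2, among the 7, and AVP, not called, reached the minimum count in fewer than 3 libraries of days 15 and 25. MYB, a transcription factor gene of dividing progenitors, stood at 52.7, 45.9 and 49 CPM, then 103, 104 and 105, then 48, 50.9 and 49.4. Day 20 stood apart from both days, at 2.12-fold and 2.11-fold (adjusted p = 5.4e-21 and 1.3e-20). MECOM, of stem cells, had 4.25 ± 0.55, 9.54 ± 0.39 and 4.86 ± 0.72. PROM1, the CD133 gene, had 0.464 ± 0.14, 10.1 ± 1.1 and 3.12 ± 0.46. FLT3, the receptor gene of the Flt3L in the medium, had 0.553 ± 0.34, 2.68 ± 0.69 and 0.727 ± 0.022. CD34 was not among them, at 5.33 ± 0.84, 1.27 ± 0.21 and 1.07 ± 0.27, as it fell to day 20 and the second step did not pass (adjusted p = 0.53).

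Of 21 glycolysis genes 6 lay above both days (28.6%) and 5 below (23.8%), the latter 2 with library-size scaling. SLC2A1, the glucose transporter gene, had 31.2, 29.7 and 29.4 CPM at day 15, 555, 554 and 536 at day 20 and 133, 138 and 132 at day 25. Day 20 stood 18.2-fold and 4.08-fold above. Among those below was HK1, the hexokinase gene, at 991 ± 2.7, 169 ± 1.7 and 239 ± 4.1 CPM. Of 19 amino acid stress response genes 5 lay above both days (26.3%) and 3 below (15.8%), and 8 and 2 with library-size scaling. The serine synthesis genes PHGDH (9.95 ± 1.2, 76.6 ± 4.8 and 25.4 ± 1.1) and PSAT1 (7.35 ± 0.96, 24.2 ± 1.7 and 11.4 ± 0.79) were above both days, while SLC7A5, an amino acid transporter gene, was below both at 661 ± 19, 108 ± 4.9 and 188 ± 2.2.

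Lysosomal genes mostly rose through day 20, 20 of 24 tested, and their summed level was 4820 to 5080 CPM at day 15, 11500 to 11900 at day 20 and 27200 to 27600 at day 25. The other 4 lay below both days (16.7%, beside 8.93% of all genes). Of 24 cholesterol synthesis genes 5 lay below both days (20.8%), and of 20 haem and iron handling genes 3 did (15.0%). Of these 20, 6 rose through day 20 and 4 fell through it. None of the 3 lists had a gene above both days. With library-size scaling the lysosomal, cholesterol and haem and iron lists had 1, 1 and 0 genes below, and 5 cholesterol genes and 2 haem and iron genes were then above. INSIG1, a sterol-responsive gene of the endoplasmic reticulum, had 961 ± 4.5, 53.8 ± 2.5 and 73 ± 2.1 CPM. FTH1, of the ferritin heavy chain, had 1082 ± 61, 680 ± 12 and 1105 ± 42, and its first step did not pass with library-size scaling (adjusted p = 0.22). FTH1 has processed pseudogenes that may share its reads. MITF, a transcription factor gene of lysosomal and mast cell programmes, had 183 ± 2.4, 69.5 ± 2.3 and 124 ± 3.3.

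**Figure D4:**
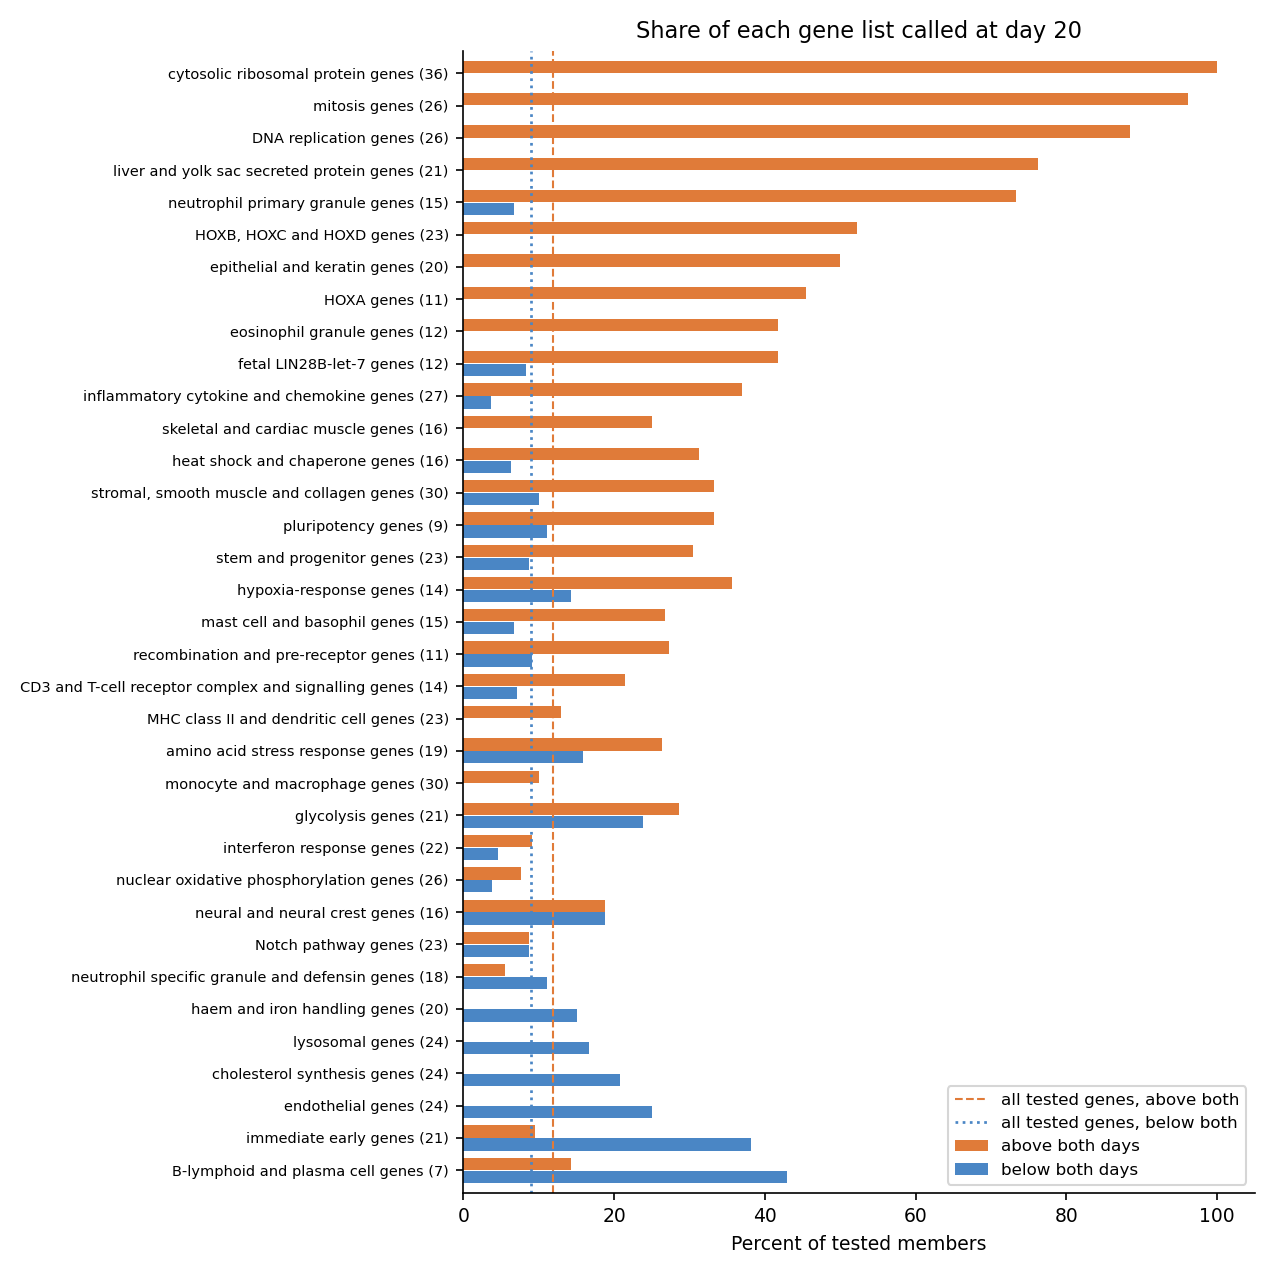
Percent of the tested members of each gene list that lay above both days (orange) or below both (blue), with the number tested in brackets, and dashed and dotted lines at 11.9% and 8.93% for all genes. Ribosomal protein, mitosis and DNA replication lists stand at the top; with library-size scaling the blue counts of the immediate early, cholesterol, lysosomal, haem and glycolysis lists fall to 4, 1, 1, 0 and 2.

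Of the 43 lists, the endothelial list had the largest number of members at least 2-fold below both days, though not the largest share below both. That share was higher for the B-lymphoid (42.9% of 7) and immediate early (38.1%) lists. Of 24 endothelial genes 6 lay below both days (25.0%, against 8.93% of all genes), 4 of them by 2-fold (1.07% of all genes), and none above. Another 5 fell through day 20 and 3 rose through it. With library-size scaling 4 lay below. ROBO4, which was not called, reached the minimum count in fewer than 3 libraries of days 15 and 25. It had 28, 16 and 26 counts on days 15, 20 and 25. VWF (ENSG00000110799), of von Willebrand factor, is made by endothelium and megakaryocytes. It stood at 256, 252 and 258 CPM at day 15, 3.5, 2.88 and 3.36 at day 20 and 18.8, 16.5 and 18.3 at day 25. The groups did not overlap, with day 20 78.6-fold and 5.48-fold lower (adjusted p = 7e-44 and 6.2e-26). PLVAP, of fenestrated endothelium, had 9.5 ± 0.77, 2.17 ± 0.5 and 7.17 ± 0.53 CPM, and FLT1, a VEGF receptor gene, had 59.2 ± 2.5, 28.4 ± 1.9 and 63.6 ± 2. TEK, the angiopoietin receptor gene, instead fell at each step, at 17.9 ± 1.3, 9.87 ± 0.56 and 3.74 ± 0.8, although its first step did not pass with library-size scaling (adjusted p = 0.10). It was picked after its values were seen.

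CD9, a tetraspanin gene beside VWF at chr12:5948874-6238271, had 573, 569 and 579 CPM, then 126, 120 and 122, then 457, 451 and 462. It dropped 4.69-fold and came back 3.73-fold. ITGB5, an integrin gene, stood at 734 ± 20, 84.9 ± 1.6 and 448 ± 1.9 CPM, and CD109, a surface glycoprotein gene, at 88 ± 4.5, 12.1 ± 2.1 and 87.5 ± 1. GUCY1A2, of soluble guanylate cyclase, had the largest smaller step among genes below both days with at least 10 CPM and no overlap of libraries, at 23.3, 20.9 and 18.6 CPM, then 1.91, 2.16 and 1.77, then 29.6, 33.6 and 32.2. Day 20 was 10.7-fold and 16.3-fold lower. The actin-severing gene GSN had 949 ± 28, 397 ± 2.7 and 863 ± 13.

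Among other genes below both days, ST6GAL1 and ST3GAL5, which encode sialyltransferases, had 382 ± 5.9, 46.3 ± 2.3 and 181 ± 2.3 CPM, and 136 ± 4.4, 30.1 ± 0.82 and 106 ± 2.8. MGLL, of monoacylglycerol lipase, had 79.8 ± 4.2, 22.7 ± 0.85 and 136 ± 6.9, and GPR183, an oxysterol receptor gene that guides lymphocytes, had 136 ± 6.9, 18.7 ± 0.83 and 80.3 ± 5.8. CD22, a B-cell lectin gene, had 52.7 ± 1.4, 6.99 ± 0.65 and 16.4 ± 1. SRPX2 had 23 ± 3.6, 2.56 ± 0.78 and 10.3 ± 0.98. None of these overlapped between day 20 and either day, which the rule that named them required of all but CD22.

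Platelet genes were also lower at day 20 than at day 15. The summed level of 17 megakaryocyte and platelet genes was 55300 to 55800 CPM at day 15, 1460 to 1490 at day 20 and 689 to 721 at day 25, and 15 of the 17 fell at both steps. VWF, CD9, ITGB5 and GSN were higher at day 25 than at day 20. The part of platelet genes in the levels of these 4 genes was not tested.

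**Figure D5:**
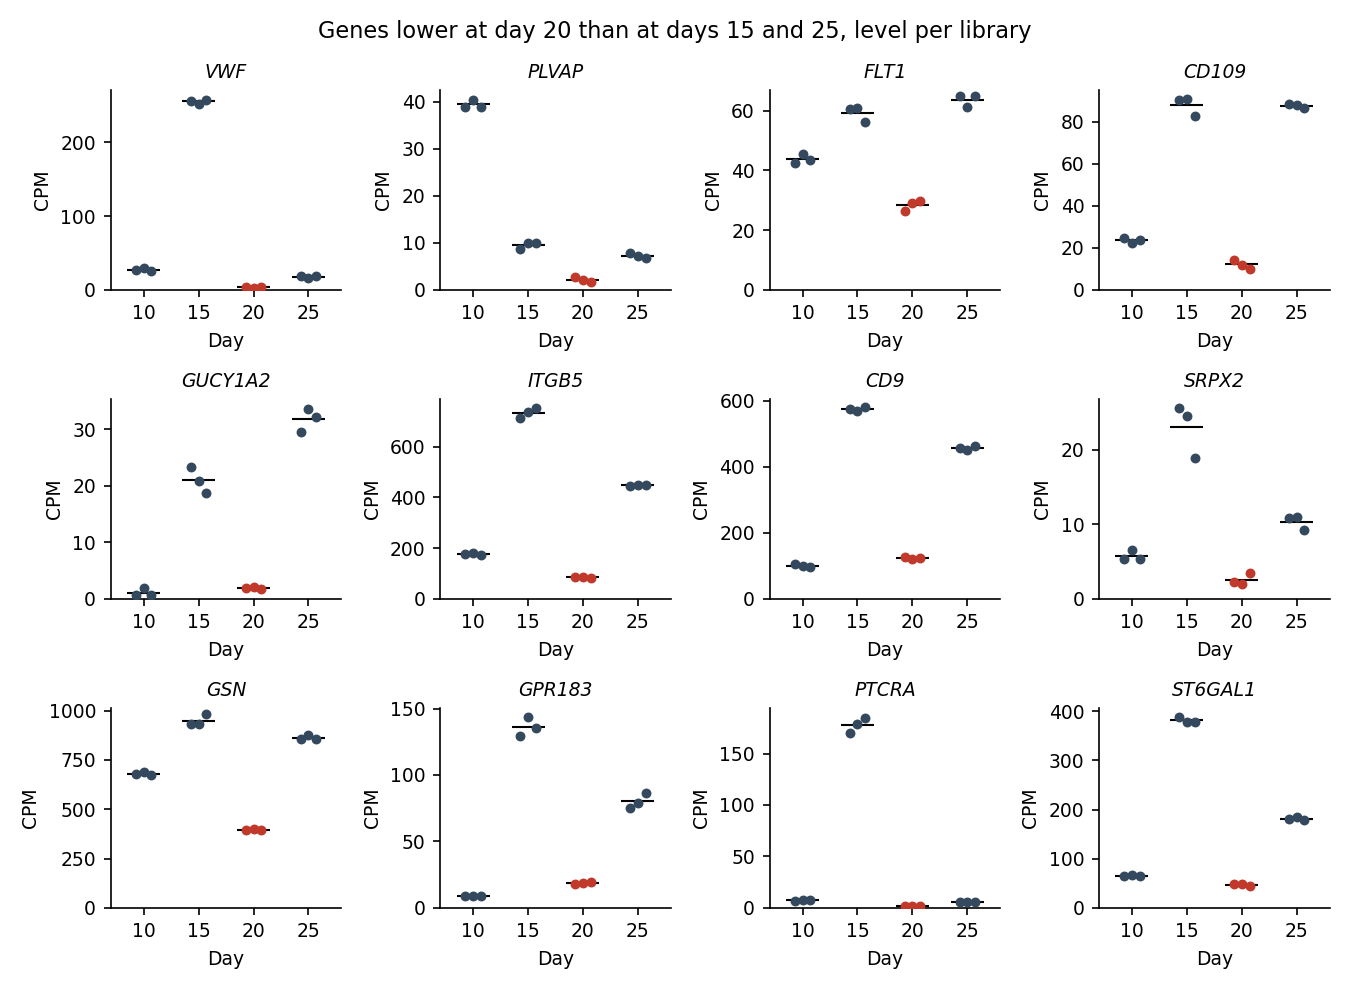
CPM of 12 genes lower at day 20 than at both neighbours, in each library by day, with red points for day 20, dark points for the other days and a bar at the mean of 3 libraries. CD109 comes back to its day 15 level at day 25, while VWF and PTCRA stay far below it.

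Genes of the T lineage took no common course around day 20. Of 20 T-lineage transcription factor genes 1 lay above both days and 1 below (5.0% each), which became 8 and 0 with library-size scaling. Of 14 tested of 23 CD3, receptor and signalling genes 3 lay above (21.4%) and 1 below (7.14%). Over all genes the shares were 11.9% and 8.93%. Another 3 of the 14 fell through day 20. The summed level of the 14 was 3390 to 3510 CPM at day 15, 233 to 248 at day 20 and 199 to 207 at day 25. TRGC1 and TRGC2, the constant genes of the γ chain, are similar enough to share reads. TRGC1 stood at 15.5, 12.3 and 10.8 CPM, then 24.7, 25.1 and 22.1, then 8.77, 10.4 and 10, and TRGC2 at 7.57 ± 1.6, 13.5 ± 1.2 and 4.75 ± 0.045. Both were above both days without overlap. The δ chain constant gene TRDC instead fell through day 20, at 5.66 ± 0.41, 1.42 ± 0.53 and 0.367 ± 0.29 CPM.

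PTCRA, of the pre-T-cell receptor α chain, lay below both days, at 170, 178 and 185 CPM, then 1.77, 1.3 and 1.71, then 5.78, 6.15 and 5.83. The groups did not overlap, and day 20 was 112-fold and 3.73-fold lower. TCF7, a transcription factor gene that acts early under Notch, was above both days at 3.23 ± 0.68, 9.61 ± 1.1 and 6.47 ± 1.4. ZAP70, the receptor kinase gene, had 1.3 ± 0.22, 3.37 ± 0.55 and 2.05 ± 0.36 CPM, and its second step did not pass without day 20 replicate 2 or 3 or day 25 replicate 3 (log2 0.64, 0.67 and 0.59). CD3E reached the minimum count through day 20 alone, so its higher level there was built into the filter. It had 0, 33 and 17 counts over the libraries of days 15, 20 and 25, and its second step did not pass (adjusted p = 0.32).

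GATA3 and RAG1 did not pass against day 25 (0.92 and 1.0), with 7.72 ± 0.86 and 7.82 ± 1.8 CPM, and 3.04 ± 0.96 and 3.02 ± 0.62, on days 20 and 25. BCL11B had 0.108 ± 0.13, 0.482 ± 0.18 and 0.912 ± 0.088 CPM, and its first step did not pass without day 15 replicate 2 (log2 1.56). CD7, an early lymphoid marker gene, fell through day 20, at 5.38 ± 0.45, 3.26 ± 0.36 and 2.15 ± 0.16, but its first step did not pass with library-size scaling (log2 -0.099, adjusted p = 0.67). Its second step did not pass without day 20 replicate 3 or day 25 replicate 1 (log2 0.51 and 0.54).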

How the data were processed

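Gene expression was measured by bulk RNA sequencing, and the authors deposited 1 table of raw read counts per gene for all libraries, per the file headers. Reads were placed on GRCh38 according to the submitters' processing notes. Aligner, counter and use of strand are not stated in the labels or headers read here, and without strand the reads of overlapping or antisense genes cannot be separated. Of 36601 gene IDs 25321 had a symbol in the table of gene names given, and coordinates are from GENCODE release 29 on GRCh38.

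Genes were kept by filterByExpr (minimum count 10) over the 9 libraries of days 15, 20 and 25, which left 19785. edgeR 4.0.16 in R 4.3.3 fitted 1 coefficient per day by robust quasi-likelihood after TMM scaling, with Benjamini-Hochberg adjustment over all tested genes. A gene lay above or below both days where both pairwise tests had an adjusted p under 0.05 in that direction. Day 10 levels are on the same scale and entered no test. For a gene with 0 counts on a day, the bound on a fold took a floor of 3 counts over that day's 3 libraries and covers counting error only.

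The members and the 43 gene lists were chosen with earlier results of these data known. Named were, per direction, the 12 genes with the largest smaller step and the 5 with the highest level among 2-fold genes, whose libraries do not overlap, with at least 10 CPM. Up to 4 members per list with at least 3 genes called and a panel of 20 genes followed, and not all are printed. RefSeq promoters were read as the first entry per symbol.

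In data simulated for day 20 against days 15 and 25 (18581 genes), 70%, 95% and 100% of peaks and 75%, 90% and 100% of troughs of 1.5-fold, 2-fold and 4-fold were recovered, with 20 genes each. No gene of 18381 unchanged or 80 changed in 1 direction was called. The simulated days differed in few genes, unlike the real days, whose scaling factors stood apart. These rates therefore do not bear on how the scaling moved the calls.

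Replicate libraries of a day differed by more than sampling noise (chi-square per degree of freedom 3.82 to 5.17), so each counted as 1 sample. Alternatives were DESeq2 1.42.0 and its size factors, limma-voom (limma 3.58.1), library-size scaling, no filter or a stricter one, all 12 libraries, thinning to equal depth, scaling without mitochondrial, ribosomal protein and haemoglobin genes, a replicate block, an adjusted p under 0.01, the larger of both p-values adjusted, glmTreat against 2-fold and leaving out each library. A filter on days 15 and 25 alone was added after seeing the data.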

Additional observations from a re-analysis of the deposited data

How the results depend on the processing

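Library-size scaling moved the counts most. It gave 10819 genes higher and 3143 lower in the contrast, 4654 above and 682 below both days, and 802 above and 116 below by 2-fold. By its construction it leaves out the TMM factors, which separated the days, and so raises day 20 against both neighbours. A test against a 2-fold minimum (glmTreat) left 214 above and 79 below. All other alternatives kept these counts within 1.5 times. With a filter on days 15 and 25 alone, chosen after seeing the data, 2281 genes lay above both days and 1776 below, 368 and 212 of them by 2-fold.

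The same-numbered libraries did not deviate together (correlations -0.015 to 0.012, beside -0.028 to 0.023 for differently numbered ones). No pairing by number was seen, but a weak one could be missed, and the labels do not say what the numbers mean. A replicate block gave 2292 genes above and 1720 below both days.

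Under library-size scaling the day 15 step became positive for ATP6V0A1 (0.18 log2), COL6A3 (0.0397), CTSZ (0.395), MSMO1 (0.12), NES (0.278), PFKFB3 (0.317), PFKFB4 (0.377), SLC3A2 (0.385), STARD4 (0.417), TM7SF2 (0.152) and UROS (0.122), and the day 25 step for COL4A1 (0.0591), UROD (0.033) and GATA3 (0.145). The day 25 step of GATA3, which did not pass, ranged from -0.193 to 0.13 log2 without single libraries. That of RAG1 ranged from -0.249 to 0.209 and was -0.0237 with DESeq2, -0.0257 with its size factors, -0.0475 with limma-voom, -0.000192 without a filter and -0.00619 with the replicate block. For these reversals the cause was not tested. Genes under a few CPM, such as CD3E, rest on few counts.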

Other observations

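Of 15 mast cell and basophil genes tested, 7 rose through day 20 and 4 lay above both days (26.7%). Among these 4 was HDC, the gene of the histamine-forming enzyme, at 109 ± 5.7, 161 ± 3.2 and 85.2 ± 6.1 CPM on days 15, 20 and 25. IL1RL1, the interleukin 33 receptor gene, had 26.9 ± 1.5, 50.4 ± 3.2 and 37.3 ± 1.2. Among genes of MHC class II and dendritic cells, 3 of 23 lay above both days (13%, beside 11.9% of all genes, and 5 with library-size scaling) and 11 rose through day 20. Among the 3 was CD1C, an antigen-presenting gene of dendritic cells, at 2.4 ± 0.35, 24.2 ± 0.95 and 16.4 ± 2.3 CPM.

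Genes of the fetal growth programme were split, with 5 of 12 above both days (41.7%, against 11.9% of all genes), 1 below and 4 falling through day 20. The summed level of the 12 fell at each step, from 2680 to 2810 CPM at day 15, to 1560 to 1660 at day 20 and 1090 to 1170 at day 25. LIN28B, which blocks let-7 maturation, stood at 28.2 ± 3.2, 41.2 ± 1.3 and 18.2 ± 1.3 CPM, IGF2 at 34.4 ± 3.5, 137 ± 2.3 and 85.3 ± 5.6, and HMGA2 at 55.6 ± 5.2, 123 ± 6.2 and 95.6 ± 0.62. Of 9 pluripotency genes tested, 3 lay above both days (33.3%, against 11.9% of all genes), 1 lay below and 3 fell through day 20. The summed level of the 9 was 130 to 137 CPM at day 15, 46.4 to 52.4 at day 20 and 15.9 to 21.7 at day 25. TERT, among the 3 above, and UTF1, not called, reached the minimum count in fewer than 3 libraries of days 15 and 25. ZFP42, also among the 3 above, had 0.342 ± 0.16, 11.2 ± 1.4 and 1.87 ± 0.51 CPM, without overlap between day 20 and either neighbour. Replication-dependent histone genes did not share the shape of the replication genes, since none of 27 lay above or below both days and 20 fell through day 20. Their transcripts mostly lack a poly(A) tail. Interferon response genes also fell through day 20, 19 of 22.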
